A study of Homo sapiens with 4 samples.

Results

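The genes described here are the proteasome genes, taken as the 49 protein-coding genes on chromosomes 1 to 22 whose RefSeq symbol begins with PSMA, PSMB, PSMC, PSMD, PSME, PSMF or PSMG followed by a number. They were chosen by name, with earlier results of these data known, and they lie on 16 chromosomes. The RefSeq annotation of GRCh38.p14 (hg38) holds 19122 protein-coding genes on chromosomes 1 to 22. PSMC3IP, which encodes the meiotic recombination factor HOP2, and PSME3IP1, which encodes a protein that binds PSME3, match by spelling and are not proteasome subunits. The other 47 comprised 8 genes of the core alpha ring, 8 of the core beta ring, 3 immunoproteasome genes, 6 ATPases and 11 non-ATPase subunits of the regulatory particle, 4 activators, 6 assembly chaperones and 1 inhibitor. PSMD5 and PSMD9 were counted as chaperones in spite of their PSMD symbols. PSMD10 lies on the X chromosome and is outside the rule.

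Chromatin binding was mapped by chromatin immunoprecipitation and sequencing (ChIP-seq) in MDA-MB-231 cells, a human cell line established from a triple-negative breast cancer and used here as a subclone. There were 2 PD-L1 ChIP samples, precipitated with an HA-tag antibody from Abcam, and 2 input samples without antibody. All 4 samples carry the genotype label wild type and were untreated. PD-L1 is a membrane protein that restrains T cells by engaging PD-1. The sources used here do not say how the HA tag was introduced. No mock precipitation was analysed here, so recovery of chromatin without the target cannot be told apart from binding in any result below.

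The proteasome degrades proteins marked with ubiquitin. Its barrel-shaped core is built of alpha and beta rings, and the beta ring holds the proteolytic sites. The core is capped by a regulatory particle, whose ATPases unfold the substrate and whose other subunits bind and remove ubiquitin, or by activators that need no ubiquitin. Interferon induces the immunoproteasome subunits, which replace the constitutive catalytic subunits and favour peptides that fit MHC class I, and it also induces the activators PSME1 and PSME2.

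A list of broad peaks was used for each ChIP replicate. Replicate 1 had 166628 peaks with a median fold enrichment of 3.14 over the caller's background, and replicate 2 had 93618 with a median of 2.27. The −log10 q started at 1.3 in both, with medians of 1.91 and 1.8. Peak values are the authors', 1 per peak, so there is no error on a single value and the spread between replicates is given by showing both. Reads were not used here, so library depth is unknown. The word Merge in the peak names of replicate 2 is not explained in the sources used here. Whether that list was called on replicate 2 alone, and so whether the lists are independent, was not tested. Below, a shared region is a union of peaks, overlapping by at least 1 bp, that holds a peak of each replicate. There were 45746 of them on chromosomes 1 to 22.

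The first comparison asked how many proteasome genes met a peak. Most did: within the gene span plus 1 kb on each side, 45 of the 49 genes (91.8%) met a peak of replicate 1, against 82% of all protein-coding genes. In replicate 2 it was 37 genes (75.5%, against 65.9% of all). A shared region was met by 31 genes (63.3%, against 53% of all). Within 1 kb of either gene end a shared region was met by 27 genes (55.1%, against 34.3% of all). No peak of either list was met by 4 genes (8.16%, against 15.6% of all). The 4 are PSMA8, a testis form of the alpha ring, PSMB3, a beta ring subunit, and the immunoproteasome genes PSMB8 and PSMB9.

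The shares with a peak or a shared region stood above the genome-wide ones although the proteasome genes were short, with a median span of 13646 bp against 24490.5 bp over all protein-coding genes. With all genes weighted to the length classes of the proteasome genes, the genome-wide shares were 79% in replicate 1, 61.8% in replicate 2 and 50.7% for shared regions. With only the peaks above the median fold of each list, the share was below that of all genes for shared regions (10.2%, against 21.1%) and for replicate 2 (38.8%, against 46.2%). Since the genes were chosen by name and number only 49, the counts are a description and no test was made over them. Peaks were also denser around them. The median over the genes of the number of replicate 1 peaks per Mb, counted within 1 Mb of the middle of each gene and with its own peaks included, was 108, against 91.5 over all protein-coding genes. In surroundings of over 100 such peaks per Mb, 21 of 28 proteasome genes (75%) met a shared region, against 73.4% of all genes in such surroundings. At 50 to 100 it was 5 of 13 (38.5%, against 50.2%), at 25 to 50 it was 3 of 6 (50%, against 33.8%), and below 25 it was 2 of 2, against 17.8%. In the classes that hold 41 of the 49 genes the share was thus close to or below that of all genes.

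The peaks did not overlap in every gene that had both. A peak of replicate 1 and none of replicate 2 was met by 8 genes (16.3%, against 18.4% of all protein-coding genes), PSMA2, PSMA5, PSMB4, PSMC6, PSMD6, PSMD7, PSMG2 and PSMG3. None of the 49 met a peak of replicate 2 alone, against 2.43% of all. Peaks of both lists that did not overlap were met by 6 genes (12.2%, against 11.4% of all protein-coding genes). The nearest peaks of the lists lay 575 bp apart in PSMC4, 1849 bp in PSMD2, 2322 bp in PSMD13, 8262 bp in PSMA4, 10819 bp in PSMD4 and 13377 bp in PSMD12. Of these 6, 5 encode subunits of the regulatory particle, which holds 17 of the 49 genes (29.4% of the 17, against 11.4% of all). No test was made of this difference.

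**Figure D1:**
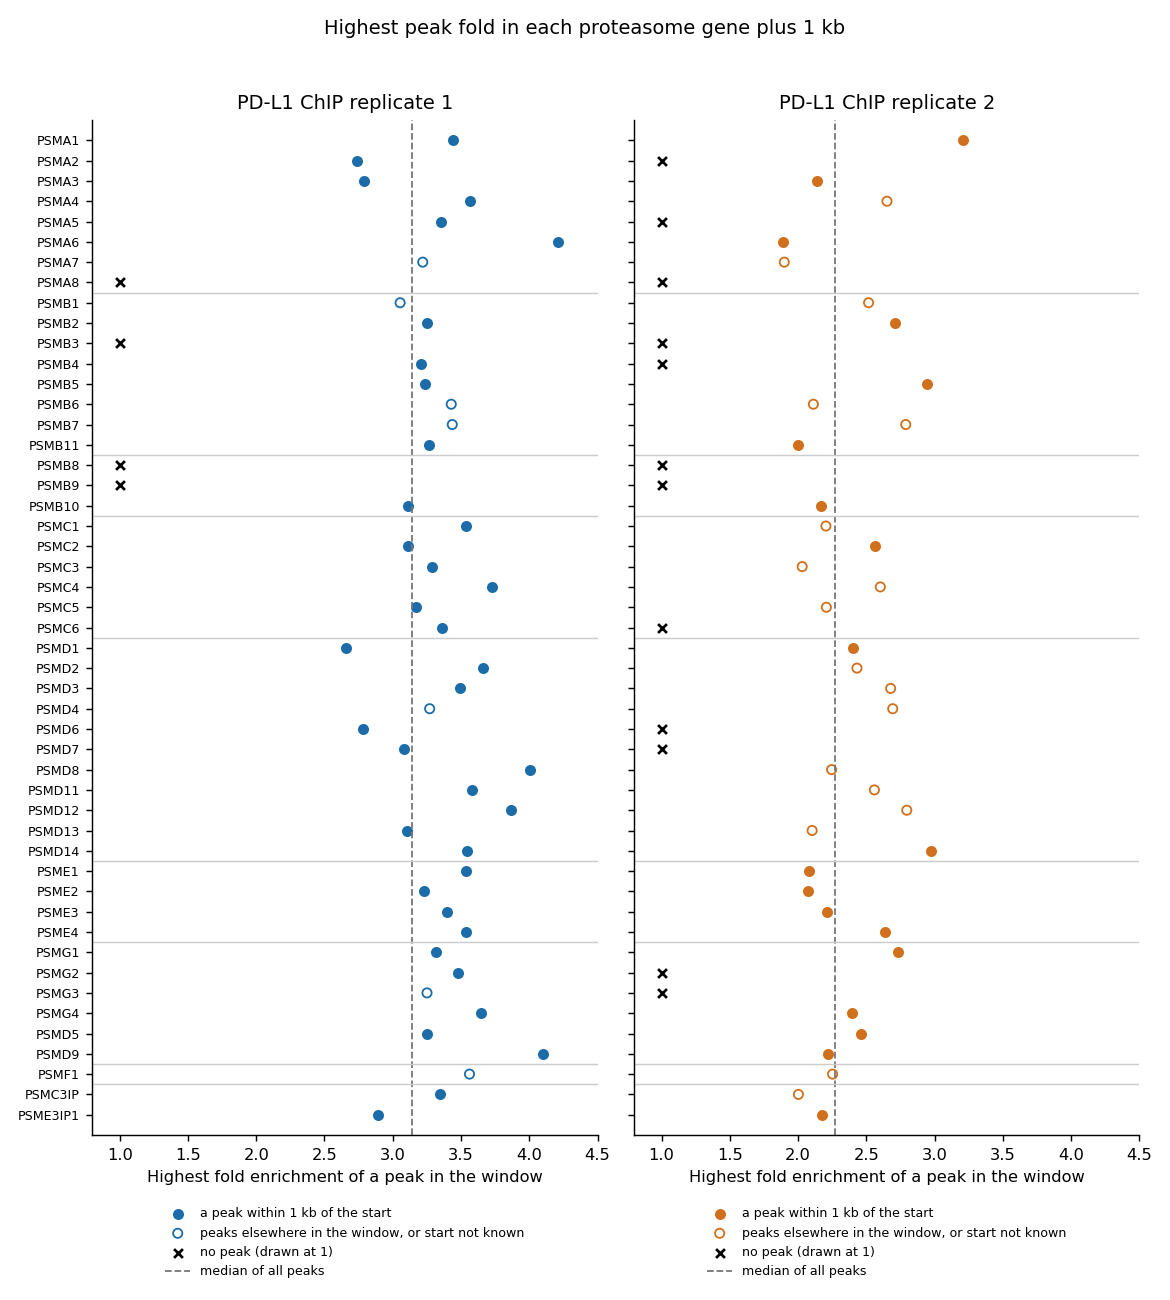
Highest fold enrichment (linear axis, no unit) of a peak in each gene span plus 1 kb, for PD-L1 ChIP replicate 1 (left) and replicate 2 (right). Each point is 1 gene, crosses mark genes with no peak and are drawn at 1, grey lines part the classes, and the dashed lines are the medians over all peaks, 3.14 and 2.27. The points run from 2.66 in PSMD1 to 4.21 in PSMA6 in replicate 1 and from 1.89 in PSMA6 to 3.21 in PSMA1 in replicate 2. A point is the highest over the peaks of its gene, while the medians are over single peaks, so the 2 are unlike measures.

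The second comparison asked where along the genes the peaks lay. They gathered at the gene start. A start and strand were known from the RefSeq promoter table for 43 of the 49 genes and for 15100 of the 19122. The start used is the first one listed there. In some genes, PSMA1, PSMA6 and PSMG4 among them, it lies inside the annotated span and not at its end. Within 1 kb of the start, 38 of the 43 proteasome genes (88.4%) had a peak of replicate 1, against 68.5% of all genes with a known start. A peak of replicate 2 was there in 19 (44.2%, against 27.4% of all) and a shared region in 19 (44.2%, against 25.8% of all). The 2 groups of 19 differ by 1 gene each way. PSMC3 had a shared region whose peak of replicate 2 began 1144 bp into the gene, and PSMG1 had a peak of each list near the start that did not overlap.

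The opposite end of the gene served as a comparison window of the same size. There, 16 of the 43 proteasome genes had a peak of replicate 1 (37.2%, against 38.1% of all), 12 a peak of replicate 2 (27.9%, against 19.3%) and 11 a shared region (25.6%, against 18.4%). At the start base itself, a peak of replicate 1 lay over 74.4% of proteasome genes, against 46.8% of all. A peak of replicate 2 lay over 32.6%, against 10.5%. At 2 kb upstream the shares in replicate 1 were 2.33% of proteasome genes and 10.5% of all, and at 2 kb into the gene they were 14% and 15%. In replicate 1 the excess over all genes was thus seen at the start and not at these 2 kb points. Farther out, the share of proteasome genes in replicate 1 was above that of all genes at some positions and below it at others. This held on both sides of the start. The excess was largest around the start but was not confined to it.

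**Figure D2:**
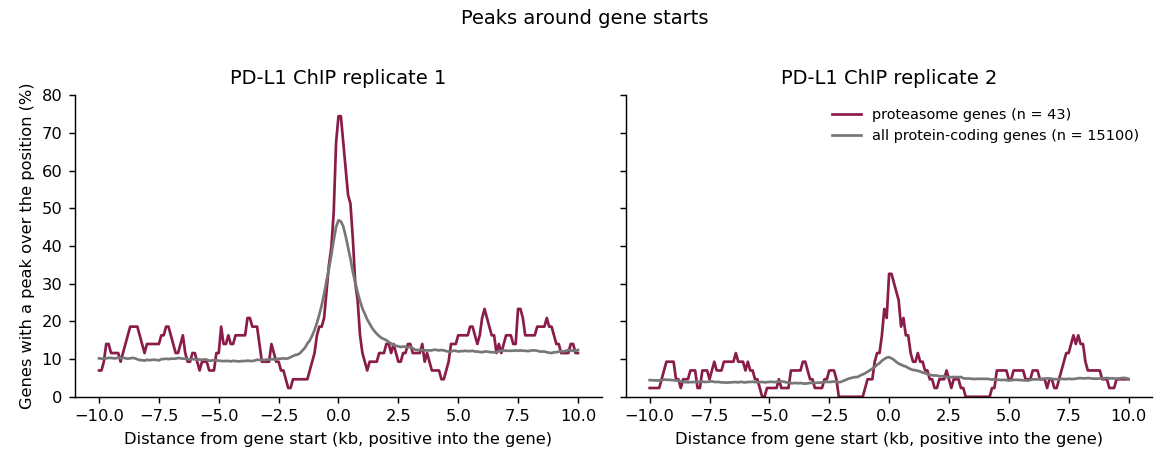
Share of genes (%) with a peak over each position, from 10 kb before to 10 kb after the gene start in steps of 0.1 kb, for PD-L1 ChIP replicate 1 (left) and replicate 2 (right). The line of the 43 proteasome genes stands above that of the 15100 protein-coding genes at the start, at 74.4% against 46.8% in replicate 1 and at 32.6% against 10.5% in replicate 2.

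Each of the 19 start regions, taken as the union of its peaks, covered the start base used for its gene. The peaks of replicate 2 alone did not cover it in PSMB11, PSMC3, PSMD1, PSMD14 and PSMG4. The peak of replicate 1 alone did not cover it in PSME4. Of the 19 regions, 16 consisted of 1 peak of each replicate. None was met by more than 1 proteasome gene. The start of another protein-coding gene lay within 1 kb of the region in 3 cases: ACYP2 beside PSME4, HPD beside PSMD9 and RNF31 beside PSME2. At these 3 the region cannot be assigned to 1 gene. Other start regions also overlapped another annotated gene. These were PSMA6 (PRORP-PSMA6), PSMD1 (LOC112268432), PSMD5 (CUTALP), PSME1 (EMC9) and PSME3IP1 (RSPRY1). The fold enrichment of the 19 regions ran from 2.66 to 3.54 in replicate 1, with a median of 3.12, and from 1.89 to 2.97 in replicate 2, with a median of 2.13. Their −log10 q reached at most 2.85.

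**Figure D3:**
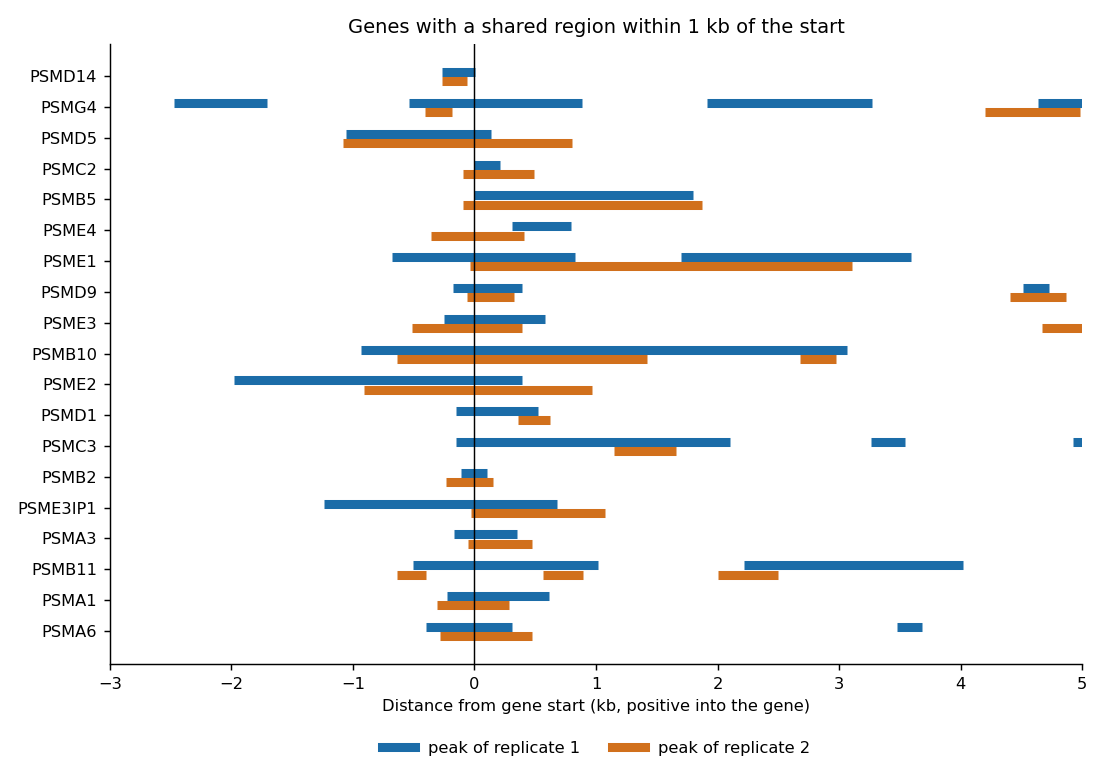
Peaks of replicate 1 (blue) and replicate 2 (orange) within the gene span plus 1 kb, drawn from 3 kb before to 5 kb after the start of the 19 genes with a shared region there (horizontal axis in kb, positive into the gene). Genes run from the best to the lowest mean percentile of fold, and the union of the peaks of both replicates covers the start in all 19.

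Density, base composition and gene length moved with the start peaks and were set beside them. In surroundings of over 100 replicate 1 peaks per Mb, 12 of 24 proteasome genes (50%) had a start region, against 38.1% of all genes in such surroundings. At 50 to 100 it was 4 of 12 (33.3%, against 20.9%), at 25 to 50 it was 1 of 5 (20%, against 14.1%), and below 25 it was 2 of 2, against 8.28%. The share was thus above that of all genes in each class, on few genes in the lower ones. The RefSeq promoters, 300 bases from 250 before the start to 50 after it, had a median GC content of 62% in the proteasome genes and 63% in all genes. With all genes weighted to the GC classes of the proteasome promoters, the genome-wide shares were 72.8% for a start peak of replicate 1, 29.8% for one of replicate 2 and 27.9% for a start region. By gene length, the proteasome genes exceeded all genes in 4 of 6 classes: under 5 kb, with 4 of 7 (57.1%, against 25.5%), at 20 to 40 kb, with 6 of 10 (60%, against 27.1%), at 40 to 100 kb, with 1 of 4 (25%, against 23.4%), and over 100 kb, with 4 of 4, against 19.9%. They were below at 5 to 10 kb, with 2 of 8 (25%, against 31.2%), and at 10 to 20 kb, with 2 of 10 (20%, against 29.8%). Length is that of the annotated span, and in PSMA1, counted over 100 kb, the start used lay inside it. What these features contribute together was not tested.

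The best-ranked shared region of a proteasome gene was at the start of PSMD14, which encodes the deubiquitinase of the regulatory particle lid. The region at 2:161308155-161308431 had a fold of 3.54 in replicate 1 and 2.97 in replicate 2. The peak of replicate 1 ran from −270 to 6 bp relative to the start, and the peak of replicate 2 from −264 to −58 bp. PSMD14 spans 103293 bp and met no other peak of either list, and its surroundings held 15 replicate 1 peaks per Mb, the lowest among the 49 genes. PSMB5, which encodes the chymotrypsin-like catalytic subunit, had a start region at 14:23033347-23035313 with folds of 3.23 and 2.34. It also held the peak with the highest −log10 q of any proteasome gene in replicate 2, 3.22 at a fold of 2.94, which lay 5909 to 6271 bp into the gene and had no partner in replicate 1.

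The promoters of these 2 genes are shown because they carry the best-ranked start region and one over a constitutive catalytic subunit whose start is known. They come from RefSeq (GRCh38.p14), at chr2:161308175-161308474 on the plus strand for PSMD14 and at chr14:23035171-23035470 on the minus strand for PSMB5, written 5′ to 3′ along the gene. Capitals mark matches, on either strand, to 6 motifs: TGACNNNGC, the core of the antioxidant response element; CCAAT; TTCNNNGAA, the STAT type; the interferon-stimulated response element, read as a pair of GAAA blocks in the same direction with 2 bases between them; GGGCGG, the GC box; and TATAAA. The shared region covers 257 of the 300 bases in PSMD14 and 143 in PSMB5.
PSMD14: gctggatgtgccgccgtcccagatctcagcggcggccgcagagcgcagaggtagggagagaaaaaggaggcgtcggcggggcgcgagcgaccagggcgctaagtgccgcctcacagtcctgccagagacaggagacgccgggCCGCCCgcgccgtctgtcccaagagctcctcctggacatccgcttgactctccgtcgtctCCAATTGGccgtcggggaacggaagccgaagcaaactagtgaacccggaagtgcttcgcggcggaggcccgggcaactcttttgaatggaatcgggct
PSMB5: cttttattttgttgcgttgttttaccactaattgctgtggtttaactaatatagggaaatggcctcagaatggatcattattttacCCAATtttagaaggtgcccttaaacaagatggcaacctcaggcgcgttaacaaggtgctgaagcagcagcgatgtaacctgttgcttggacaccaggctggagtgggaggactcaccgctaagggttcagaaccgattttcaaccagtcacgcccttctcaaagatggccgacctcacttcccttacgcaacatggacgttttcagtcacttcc
PSMD14 has a GC box on the opposite strand at −108 to −103 bp from the start and overlapping CCAAT matches, at −48 to −44 bp and, on the opposite strand, at −45 to −41 bp. PSMB5 has 1 CCAAT, at −164 to −160 bp.

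The motifs were counted over the 43 proteasome promoters and the 15100 of all genes. TGACNNNGC was found in 13 (30.2%, against 14.2%), the interferon-stimulated response element in 6 (14%, against 3.17%) and CCAAT in 20 (46.5%, against 36%). TTCNNNGAA was in 5 (11.6%, against 7.1%), GGGCGG in 30 (69.8%, against 58.9%) and TATAAA in 5 (11.6%, against 9.71%). TGACNNNGC was in 6 of 19 proteasome promoters with a start region (31.6%) and 7 of 24 without (29.2%), against 15.1% with and 13.9% without over all genes. The interferon-stimulated response element was in 4 with a region, those of PSMB10, PSME1, PSME2 and PSMG4, and in 2 without, those of PSMA4 and PSMB4. Over all genes it was in 2.28% with and 3.47% without. GGGCGG was in 11 of 19 (57.9%) with a region and 19 of 24 (79.2%) without, and over all genes the order was the opposite, at 68.5% with a region and 55.5% without. A match is a string of letters and does not show a bound site.

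The classes named in the design were then set side by side. At the start, shared regions were found in 6 of 12 core genes (50%), 1 of 3 immunoproteasome genes (33.3%) and 4 of 16 regulatory particle genes (25%). They were found in 4 of 4 activators and 3 of 5 chaperones (60%). The share of all genes with a known start was 25.8%, close to that of the regulatory particle. The replicates differed most in the regulatory particle. There, 16 of 16 genes had a start peak in replicate 1, and 3 of 16 (18.8%) in replicate 2. The share of all genes with a known start also fell, from 68.5% in replicate 1 to 27.4% in replicate 2. In the activators the count was 4 of 4 in both. In the core it was 10 of 12 in replicate 1 and 6 of 12 in replicate 2. With so few genes in a class no test of these differences was made. The immunoproteasome genes without a region, PSMB8 and PSMB9, lay in a stretch of 4.98 Mb with no peak of either list, described below. Their lack of a region was thus not particular to the class.

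**Figure D4:**
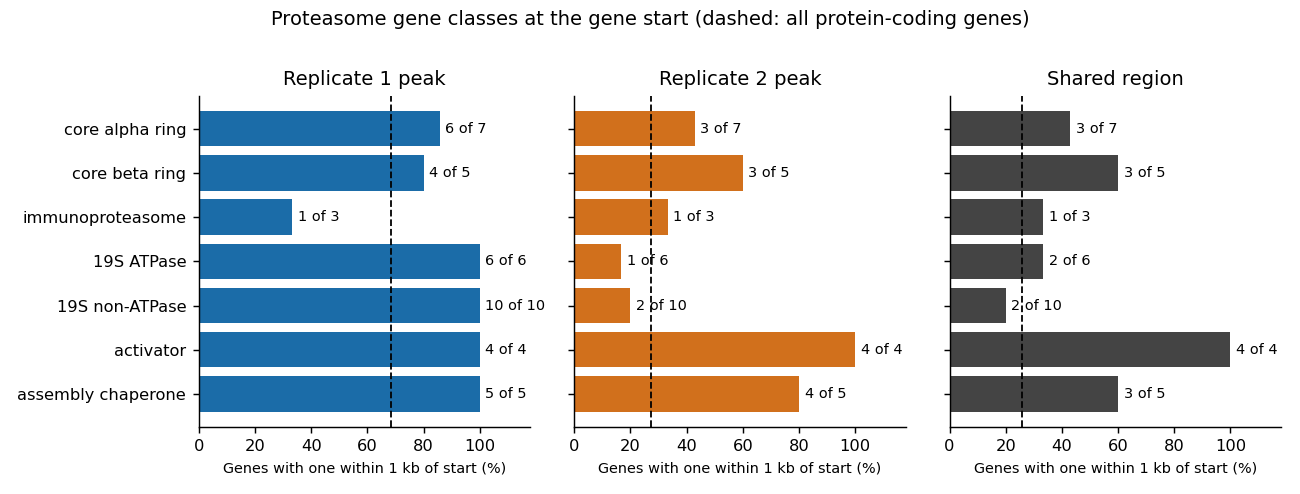
Share of genes (%, with the counts printed) of each class that had a peak of replicate 1, a peak of replicate 2 or a shared region within 1 kb of the start, among genes with a known start. Dashed lines give the share of all protein-coding genes, 68.5%, 27.4% and 25.8%, and the ATPase and non-ATPase bars stand at 100% in replicate 1 but below the dashed line in replicate 2.

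In the alpha ring, which gates entry to the core, 3 of 7 genes with a known start had a start region (42.9%, against 25.8% of all). PSMA1 had folds of 2.80 in replicate 1 and 2.098 in replicate 2 there, PSMA3 had 2.79 and 2.14, and PSMA6 had 2.83 and 1.89. All 6 values lay below the median of their list. PSMA6 also held the highest −log10 q of any proteasome gene in replicate 1, 3.35 at a fold of 4.21. That peak lay at −13752 to −13555 bp from the start used. It began at 35278565, at the upstream end of the annotated span, which begins at 35278558. Replicate 2 had no peak there. PSMA2, PSMA4 and PSMA5 had a start peak in replicate 1 alone, with folds of 2.74, 3.56 and 3.35. PSMA7, whose start is not in the promoter table, lay in dense surroundings, 204.5 peaks of replicate 1 per Mb, and 84.8% of its span was covered by shared regions.

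In the beta ring, 3 of 5 genes with a known start had a start region (60%, against 25.8% of all). They were PSMB2, PSMB5 and PSMB11. PSMB11, the thymus form of the chymotrypsin-like subunit, spans 1849 bp and had folds of 3.01 and 1.9998 at the start. PSMB2 had 3.001 and 2.11, in a region of 387 bp. PSMB4 had a start peak in replicate 1 alone, with a fold of 3.20. The genes of the other constitutive catalytic subunits, PSMB6 (caspase-like) and PSMB7 (trypsin-like), have no start in the promoter table. PSMB6 met 1 shared region, at 17:4797512-4799153, with folds of 3.43 and 2.11, which covered 42.2% of the gene. PSMB7 met 5, the most of the 49 genes, over a span of 61978 bp. The best of them, at 9:124363081-124365546, had folds of 3.23 and 2.58. PSMB1 met 1, with folds of 3.05 and 2.52, and that region lay inside the gene. All 3 constitutive catalytic genes met a shared region, against 53% of all protein-coding genes. All 3 lay in surroundings of over 100 replicate 1 peaks per Mb, where 73.4% of all genes met one.

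Of the 3 immunoproteasome genes, PSMB10 alone met any peak. It encodes the counterpart of PSMB7, and a single peak of replicate 1 at 16:67933784-67937783, 4000 bp wide, covered the whole gene with a fold of 3.11. Replicate 2 had a peak with a fold of 2.17 over the start and one with a fold of 1.86 at the other end. PSMB10 lay in dense surroundings, with 183.5 replicate 1 peaks per Mb. PSMB8 and PSMB9, the counterparts of PSMB5 and PSMB6, met no peak in either list.

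PSMB8 and PSMB9 lie beside the peptide transporter genes TAP1 and TAP2 in the MHC, and the absence of peaks was not particular to them. The lists used here hold no peak over a stretch of 4.98 Mb, at 6:28506966-33488464, which contains 171 protein-coding genes, TAP1, TAP2 and the classical HLA genes among them. Peaks resumed at its edges. In the 2 Mb below the stretch there were 113 peaks of replicate 1 and 49 of replicate 2, and in the 2 Mb above it 387 and 236. PSMB3, on chromosome 17, lay in a similar stretch of 3.09 Mb with 55 genes, at 17:35765323-38853018, with 242 and 135 peaks in the 2 Mb below and 288 and 184 in the 2 Mb above. PSMA8 lay in a shorter one of 105622 bp. Of 2831 genes with no peak in their window and peaks farther out on both sides, 7.81% lay in a stretch at least as long as that of PSMB8 and PSMB9, 10.8% in one as long as that of PSMB3 and 65.6% in one as long as that of PSMA8.

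The lists name alternate scaffolds of the build, with 24 peaks of replicate 1 and 3 of replicate 2 on them. None of these lay on an alternate scaffold of chromosome 6, and 1 peak of replicate 1 lay on one of chromosome 17. Whether reads from the peak-free stretches were placed elsewhere, set aside or not enriched was not tested, and a lack of enrichment at PSMB3, PSMB8 and PSMB9 cannot be told apart from a lack of usable reads. Without the 646 genes in peak-free stretches of at least 1 Mb, 3 of them proteasome genes, a replicate 1 peak was met by 45 of 46 proteasome genes (97.8%, against 84.8% of the remaining protein-coding genes). The genes left out were picked for their lack of peaks, so both shares rise by construction.

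**Figure D5:**
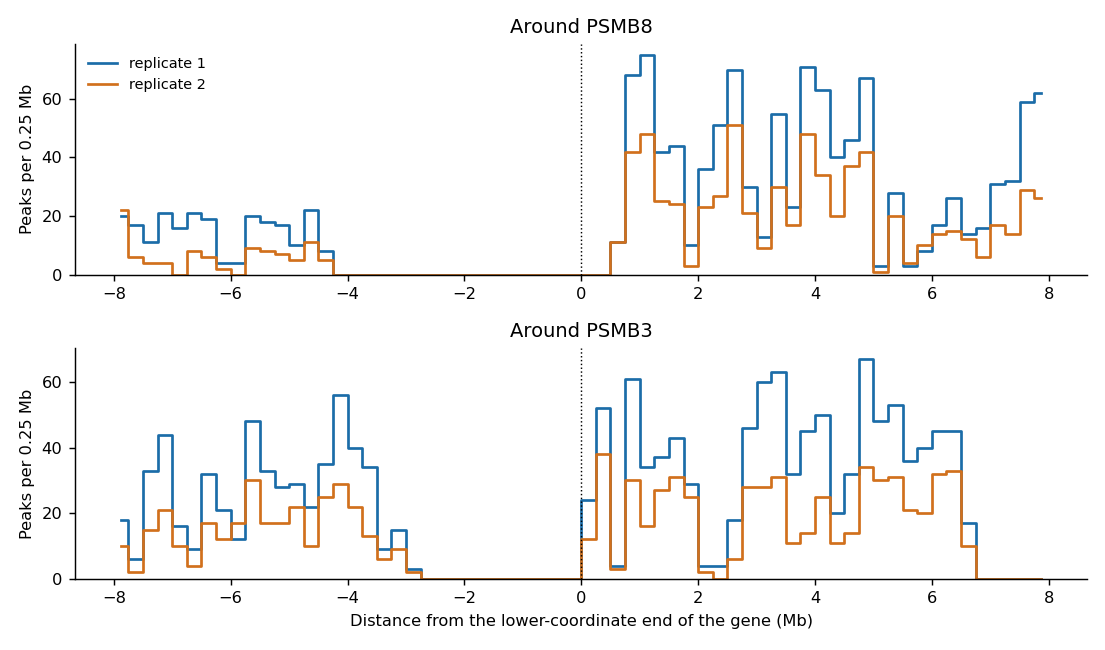
Peaks per 0.25 Mb in replicate 1 (blue) and replicate 2 (orange) by distance in Mb from the lower-coordinate end of PSMB8 (top) and PSMB3 (bottom). Both lists drop to 0 together over the 4.98 Mb stretch that holds PSMB8 and PSMB9 and over the 3.09 Mb stretch that holds PSMB3.

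The activators were the one class in which every gene had a start region (4 of 4, against 25.8% of all genes with a known start). The regions of PSME2 and PSME4 also lay within 1 kb of the starts of RNF31 and ACYP2 and cannot be assigned to 1 gene. That of PSME1 also overlapped EMC9. PSME1 and PSME2 encode the interferon-induced PA28 ring and lie near each other on chromosome 14. PSME1 had folds of 3.54 in replicate 1 and 2.08 in replicate 2, in a region of 4270 bp that covered the whole gene. PSME2 had 3.23 and 2.07. PSME3, which encodes a nuclear PA28 form, had 3.40 and 2.02, and PSME4, which encodes the large activator PA200, had 3.53 and 2.13. All 4 values of replicate 1 were above the median of that list, and all 4 of replicate 2 were below the median of theirs.

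The promoters of the 3 immunoproteasome genes and of PSME2 are shown as interferon-induced genes with and without a region. They come from RefSeq (GRCh38.p14), at chr6:32844630-32844929 on the minus strand for PSMB8, chr6:32853942-32854241 on the plus strand for PSMB9, chr16:67936801-67937100 on the minus strand for PSMB10 and chr14:24146561-24146860 on the minus strand for PSME2. Capitals mark the same 6 motifs. The shared regions cover all 300 bases in PSMB10 and PSME2 and 0 in PSMB8 and PSMB9.
PSMB8: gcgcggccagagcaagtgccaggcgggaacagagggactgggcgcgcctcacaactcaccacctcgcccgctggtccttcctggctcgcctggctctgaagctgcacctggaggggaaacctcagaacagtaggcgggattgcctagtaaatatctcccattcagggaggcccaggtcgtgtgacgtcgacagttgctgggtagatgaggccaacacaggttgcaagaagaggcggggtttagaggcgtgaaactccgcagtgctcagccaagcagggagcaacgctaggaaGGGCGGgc
PSMB9: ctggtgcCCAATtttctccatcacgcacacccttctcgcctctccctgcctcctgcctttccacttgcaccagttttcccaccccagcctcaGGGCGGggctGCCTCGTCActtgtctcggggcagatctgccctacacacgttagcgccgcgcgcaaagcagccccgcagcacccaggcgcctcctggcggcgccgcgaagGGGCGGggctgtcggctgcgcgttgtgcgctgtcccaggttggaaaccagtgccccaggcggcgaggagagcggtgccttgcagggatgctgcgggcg
PSMB10: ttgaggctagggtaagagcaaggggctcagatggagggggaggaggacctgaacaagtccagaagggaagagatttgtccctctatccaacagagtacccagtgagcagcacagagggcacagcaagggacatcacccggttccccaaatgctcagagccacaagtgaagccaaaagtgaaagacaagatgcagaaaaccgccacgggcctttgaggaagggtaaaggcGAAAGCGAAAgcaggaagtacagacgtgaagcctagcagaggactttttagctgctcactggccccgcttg
PSME2: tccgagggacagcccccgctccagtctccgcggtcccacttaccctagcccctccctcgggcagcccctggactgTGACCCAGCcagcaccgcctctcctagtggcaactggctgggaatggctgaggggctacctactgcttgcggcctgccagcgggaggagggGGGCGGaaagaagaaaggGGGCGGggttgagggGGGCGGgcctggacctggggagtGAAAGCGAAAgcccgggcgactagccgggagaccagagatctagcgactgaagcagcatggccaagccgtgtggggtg
PSMB10 and PSME2 hold the interferon-stimulated response element, at −21 to −12 bp in PSMB10 and −28 to −19 bp in PSME2, and in both the match reads the same letters. PSMB9 and PSME2 hold TGACNNNGC, on the opposite strand at −148 to −140 bp in PSMB9 and at −175 to −167 bp in PSME2. GGGCGG is found in PSMB8, PSMB9 and PSME2, and PSMB9 also has a CCAAT.

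All 6 ATPases of the regulatory particle had a start peak in replicate 1, against 68.5% of all genes with a known start. PSMC2 was the only one with a start peak in replicate 2 (16.7%, against 27.4% of all). Its region at 7:103347552-103348132 had folds of 3.11 and 2.56 in surroundings of only 20 replicate 1 peaks per Mb. The region of PSMC3 had 3.12 and 2.03. PSMC1 had its best region at the opposite end of the gene, at 14:90274417-90276207, with 3.54 and 2.18, and PSMC5 had one beyond its own end, with 3.17 and 2.21. PSMC4 and PSMC6 had start peaks of 3.44 and 3.36 in replicate 1 alone.

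The non-ATPase subunits repeated this pattern. All 10 with a known start had a start peak in replicate 1, against 68.5% of all genes. Only PSMD1 and PSMD14 had one in replicate 2 (20%, against 27.4% of all). PSMD1, the scaffold of the base, had folds of 2.66 and 2.40 at its start. PSMD8 had the highest start fold of any proteasome gene in replicate 1, 4.01 with a −log10 q of 2.95, and no replicate 2 peak there; its shared region lay 5963 to 16023 bp into the gene and beyond its end, with folds of 3.23 and 2.24. PSMD2, PSMD3, PSMD11 and PSMD12 had start folds of 3.66, 3.49, 3.58 and 2.76 in replicate 1 and no start peak in replicate 2. PSMD6, PSMD7 and PSMD13 had 2.78, 3.08 and 2.90 in replicate 1 and no start peak in replicate 2 either. PSMD4, a ubiquitin receptor with no start in the promoter table, met 1 peak of each list, 10819 bp apart.

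Of the assembly chaperones, 3 of 5 with a known start had start regions (60%, against 25.8% of all). They were PSMD5, PSMD9 and PSMG4. PSMG4, a core chaperone, had the second best region of the 49 genes, at 6:3258406-3259830, with folds of 3.54 and 2.39. PSMD5, a chaperone of the regulatory particle base, had 3.25 and 2.46, and its replicate 2 peak had a −log10 q of 2.85. PSMD9, another base chaperone, had 3.39 and 2.05 at its start and met 4 shared regions. PSMG1 had its shared region near the opposite end, at 21:39175680-39176446, with 3.02 and 2.70. PSMG2 had a start peak of 3.48 in replicate 1 alone. PSMF1, the inhibitor, met 13 peaks of replicate 1, 3 of replicate 2 and 3 shared regions, the best at 20:1163059-1165193 with 3.46 and 2.25, and none within 1 kb of the first start listed. A shared region at 20:1118777-1119763 lay at its second listed start.

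The strength of the regions did not stand out from the genome. Over the 50 shared regions met by proteasome genes, the median percentile of fold among all shared regions was 42.9 in replicate 1 and 35.2 in replicate 2. The median folds were 3.12, against 3.17 over all shared regions, in replicate 1 and 2.125, against 2.195, in replicate 2. The share of peaks with a −log10 q of 2 or more was higher in proteasome genes, at 55.7% of 131 peaks against 40.3% of all in replicate 1 and at 38.9% of 72 peaks against 31% of all in replicate 2. Peaks were also wider there in replicate 1, with a median of 758 bp against 611 bp over the list.

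The other genes of the pathway were read from a list of 27, which holds subunits and partners without a PSM symbol, ubiquitin shuttles, transcription factors that act on proteasome genes, and TAP1 and TAP2. A peak of replicate 1 was met by 25 of them (92.6%, against 82% of all protein-coding genes), a peak of replicate 2 by 16 (59.3%, against 65.9%) and a shared region by 15 (55.6%, against 53%). Of 24 with a known start, 20 had a start peak in replicate 1 (83.3%, against 68.5%), 11 in replicate 2 (45.8%, against 27.4%), and 10 a start region (41.7%, against 25.8%). At the other end 2 had a region (8.33%, against 18.4%). The 10 were ADRM1, a ubiquitin receptor of the proteasome (folds of 3.37 in replicate 1 and 2.13 in replicate 2), POMP, the core maturation chaperone (3.01 and 2.64), PAAF1 (2.65 and 1.93), DDI2 (3.07 and 2.28), AKIRIN2 (3.58 and 2.34), RAD23B (3.28 and 2.60), NFE2L1 (3.29 and 2.01), NFE2L2 (3.26 and 2.45), MAFF (3.28 and 2.24) and MAFG (3.48 and 2.11). NFE2L1 is the transcription factor that raises proteasome gene expression when the proteasome is inhibited, DDI2 is the protease that activates it, and AKIRIN2 carries proteasomes into the nucleus. NFE2L2 and the small MAF proteins bind the antioxidant response element.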

How the data were processed

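The data are ChIP-seq peak lists of 2 PD-L1 ChIP samples, each with an input sample. The submitters' processing notes name Bowtie2 2.2.9, MACS2 2.1.1 and hg38, with no role or order, and the sources used here give neither settings nor thresholds. The deposited lists hold, per peak, the authors' score, fold enrichment (a ratio), −log10 p-value and −log10 q-value. The sources used here do not say how the inputs entered the calls. Depth is unknown, so no intervals were computed.

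Peaks on chromosomes 1 to 22 were set against gene spans of the RefSeq table for GRCh38.p14, widened by 1 kb, and against windows of 1 kb around the first start listed in the RefSeq promoter table. Peaks overlapping by at least 1 bp were joined into shared regions. A region took the highest fold in each replicate, and regions were ranked by the mean percentile of fold. Counts stand beside those over all protein-coding genes, and no test was made over genes chosen by name. The counting was tested on simulated peaks. Python 3.11.15, numpy 2.4.6, pandas 2.3.3 and matplotlib 3.10.9 were used.

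The genes, classes, pathway list and motifs were chosen with earlier results of these data known. Full values were given for genes with a start region, the 10 genes with the best-ranked regions, the constitutive catalytic and immunoproteasome genes, the gene with the highest −log10 q in each list, and genes without peaks; other genes named were chosen after their values were seen.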

Additional observations from a re-analysis of the deposited data

How the results depend on the processing

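Depth, caller settings and the 2 low-fold lists limit all counts. The 4 main counts were 31 genes with a shared region in the span plus 1 kb, 45 with a replicate 1 peak, 37 with a replicate 2 peak and 19 with a start region. Of 39 recomputed counts, 30 stayed within 1.5 times the main count, and the share of proteasome genes was above that of all protein-coding genes in 37. It was below in 2, both under the higher-fold setting. Several of the 39 were fixed in advance, so the tally is not a measure of stability. Leaving out peak-free stretches could not change a count, since the proteasome genes left out met no peak. Equal numbers of peaks left replicate 2 as it was. Over the span, leaving out 1 replicate repeated the main counts of 37 and 45. With a −log10 q of at least 2, shared regions were met by 10 genes (20.4%, against 17.2% of all), replicate 2 peaks by 20 (40.8%, against 39.4%) and start regions by 6 (14%, against 5.25%). With only the peaks above the median fold of each list, shared regions were met by 5 genes (10.2%, against 21.1%), replicate 2 peaks by 19 (38.8%, against 46.2%) and start regions by 4 (9.3%, against 5.48%). With a reciprocal overlap of 50%, 20 genes met a shared region (40.8%, against 28.2%) and 11 had one at the start (25.6%, against 7.33%). Fewer peaks or regions enter under these 3 settings by construction. With 1 replicate left out, the count at the start ranged from 19 to 38 genes and that over the span from 37 to 45. The higher value came without replicate 2 in both.

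Equal numbers of peaks, other windows and peak centres left the counts within 1.5 times. Chosen after seeing the data were 3 settings: any listed start gave 20 start regions (46.5%, against 28%), leaving out PSMC3IP and PSME3IP1 gave 18 of 41, and leaving out genes in peak-free stretches of at least 1 Mb gave 19 of 40 (47.5%, against 26.7%). The last of these leaves out genes for their lack of peaks, so its shares rise by construction. No paired analysis was possible because the results come from no test.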

Other observations

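The 4 proteasome genes longer than 100 kb, PSMA1, PSMD1, PSMD14 and PSME4, met few peaks. The medians were 1 peak of replicate 1 and 1.5 of replicate 2, against 5 and 3 over the 935 protein-coding genes in the length range of the 4. Each of the 4 met exactly 1 shared region, and it lay at the start used, where 22.5% of the 759 genes in that range with a known start had one. In PSMA1, on the minus strand, that start was at 14520386, far inside a span that ran from 14504876 to 14643662. Its region thus lay at neither end of the long span. PSMD1 and PSMD14 met 1 peak of each list in all, both in the start region. PSMA1 met 4 peaks of replicate 1 and 3 of replicate 2, and 1 pair of these overlapped. Length was examined after the start regions were seen, on 4 genes.

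Of the genes that match by spelling only, PSME3IP1 met 3 peaks of each list in 3 shared regions, one of them at the start with folds of 2.89 in replicate 1 and 2.14 in replicate 2. PSMC3IP had a start peak in replicate 1 alone, with a fold of 3.34, and a shared region near its other end.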
